A study of Mus musculus with 9 samples.

Results

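The genes described here are 10 regulators of pancreatic endocrine development and of Notch signalling, chosen by symbol from a deposited table of 52459 gene symbols: Neurog3, Sox9, Sox4, Jag1, Dll1, Notch1, Notch2, Hes1, Hey1 and Myc. All 10 were found, and all 10 were among the 16826 genes with enough counts to be tested. RNA came from islets of Langerhans, where the pancreas makes insulin, glucagon and other hormones, of mice aged 12 weeks. There were 3 libraries each of wild type (+/+, WT), heterozygous (+/-, db/+) and homozygous (-/-, db/db) mice. All 9 libraries carry the same strain label, of the BKS background with the db allele of Lepr, the leptin receptor gene. The labels give the Lepr genotype of each group but not the sex of the mice, nor whether a library holds islets of 1 mouse or of several. The db allele is carried by every cell of the animal and db/db mice are obese and diabetic, so a difference in islets need not arise from leptin signalling in islets. Nothing in the labels ties a library to a separate animal, so the p values speak for the spread among libraries, and that spread may be technical.

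In the developing pancreas, Notch receptors are activated by ligands of the Delta and Jagged families on neighbouring cells. The receptor is then cleaved by gamma-secretase, and its intracellular part joins the DNA-binding protein RBPJ to switch on repressors of the Hes and Hey families. HES1 represses Neurog3, the factor that commits a progenitor to the endocrine fate, while SOX9 marks the progenitor pool and later the ducts. In adult islets Neurog3 is low, SOX9 is largely restricted to duct cells, and Notch genes are also used by endothelial cells and pericytes, so whole-islet RNA holds transcripts of several cell types. The labelled tissue was met by its markers, since the summed level of 16 islet endocrine markers, hormone genes among them, was 113205 to 152988 CPM in the 9 libraries. CPM are counts put on one common library size, scaled by TMM, which corrects totals for differences in composition.

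Total counts per library ranged from 9558955 to 11473420 (WT), from 11164775 to 11734886 (db/+) and from 8860024 to 9260105 (db/db), and 3 counts, the limit that a count of 0 allows, came to 0.238 to 0.412 CPM (counting error only). The library db/db 1 stood apart: its summed acinar, duct, pericyte and macrophage markers were the highest of all 9. Gm42418 and Lars2, genes that overlap or resemble ribosomal RNA sequence, took 17.9% and 13.3% of the counts in db/db 1 and db/db 2, against 0.0558% in db/db 3, 0.0220% to 0.0237% in db/+ and 1.89% to 2.58% in WT. This sign of RNA or library quality thus moved with 2 of the 3 db/db libraries, and its part in the results was not tested. The summed CPM of 4 Y-linked genes ranged from 219 to 343 (WT) and from 373 to 417 (db/+), but was 176, 1.11 and 0.108 in the db/db libraries, while Xist was at 308 to 948 CPM in WT 1, WT 3 and every db/db library and at 0.722 CPM or below in the others. Sex makeup thus differed between the groups. It also differed within WT and within db/db, since WT 1, WT 3 and db/db 1 held both Y-linked RNA and Xist. The fit with the Y-linked sum as a covariate is given after the results. The fits of the 10 genes and of all listed genes were repeated without db/db 1, and it is stated where this ended or made a call of a named gene (for listed genes, against WT).

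In db/db against WT islets, Jag1, Hes1, Hey1 and Sox9 rose and Notch1 fell, while Neurog3, Sox4, Notch2, Dll1 and Myc did not pass the test. Thus 5 of 10 genes were called, 4 higher and 1 lower, where 41.7% of all tested genes were called in this comparison, 21.8% higher and 19.9% lower. The median log2 fold change of the 10 genes was 0.94, against 0.01 over all tested genes. Against db/+, Jag1, Hes1, Hey1, Sox9 and Myc rose and no gene fell, with 5 of 10 called where 40.3% of all tested genes were, 20.6% higher and 19.7% lower. The median was 0.65, against 0.01 over all tested genes. Both comparisons use the same db/db libraries, so they are not independent of each other. The groups' CPM ranges did not overlap for 6 genes in db/db against WT (5 higher and 1 lower) and for 7 in db/db against db/+ (6 higher and 1 lower), where 51.5% of all tested genes (26.2% higher, 25.3% lower) and 52.2% (26.2% higher, 26% lower) had such ranges. A share of called genes this near the background says little of the 10 genes as a set, and the values of each gene follow. In bulk islets, a change in the number of cells of a type and a change in RNA per cell cannot be told apart.

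**Figure D1:**
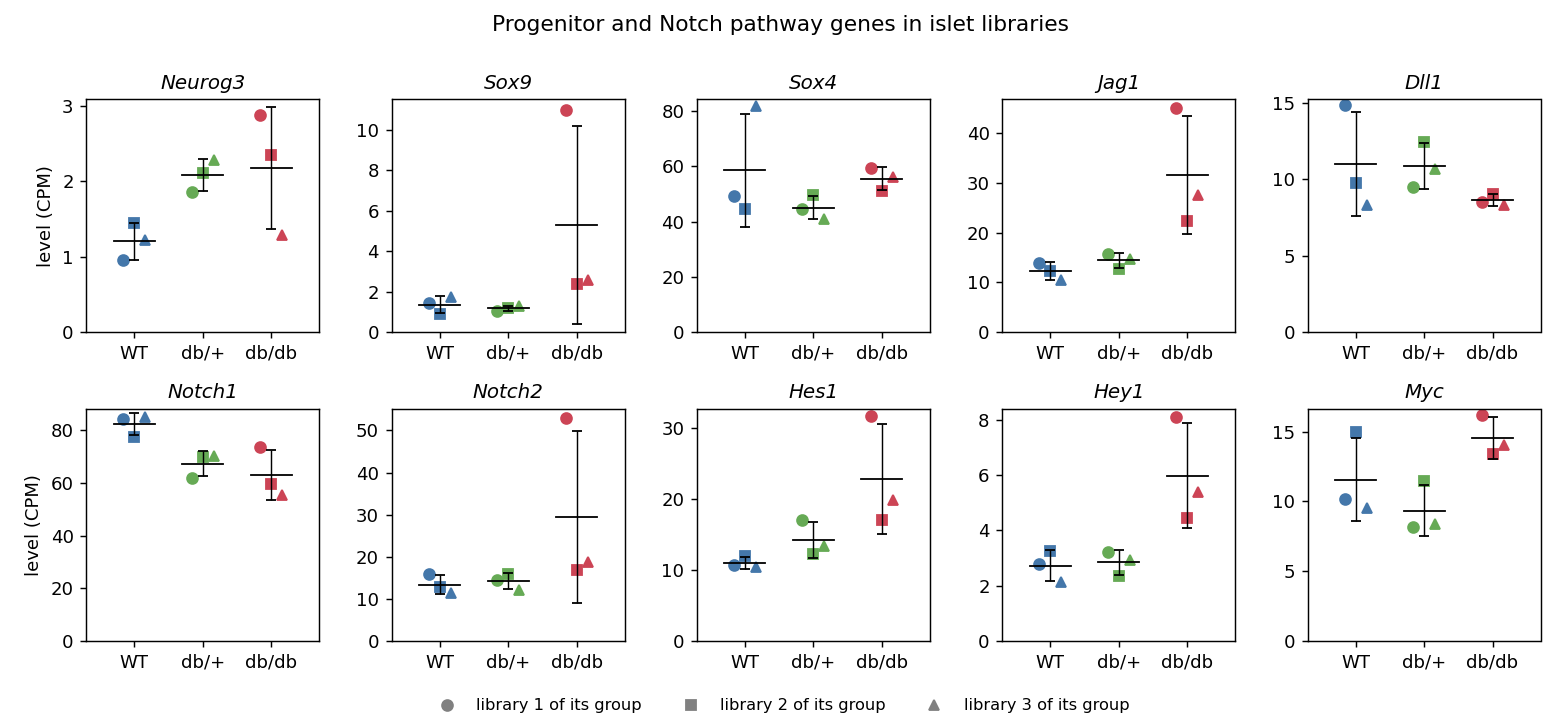
Level of each of the 10 genes in CPM (vertical axis, linear, from 0) in the WT, db/+ and db/db libraries. Each point is a library, its shape giving its number within the group, and lines and bars are the mean and SD (n = 3). The library db/db 1 is the highest db/db point in all panels except that of Dll1.

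**Figure D2:**
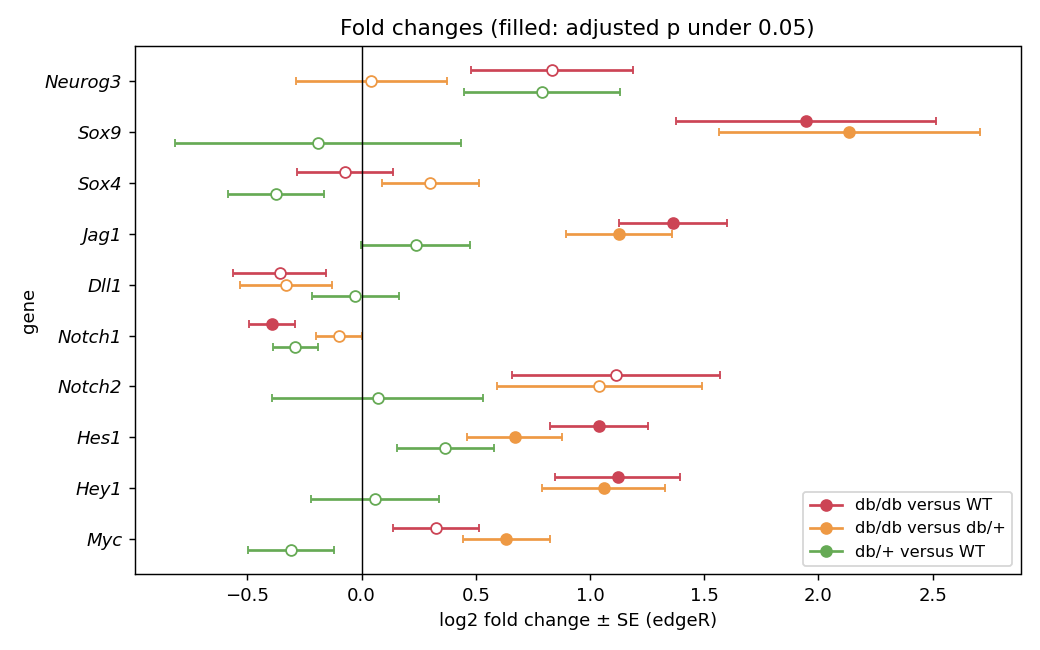
The log2 fold change with its standard error from edgeR (horizontal axis) for each gene (vertical axis) in the 3 comparisons, with filled points where the adjusted p is under 0.05. Sox9, Jag1, Hes1 and Hey1 have filled points above 0 in both db/db comparisons, and no point of db/+ against WT is filled.

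Neurog3 (chromosome 10, 62133090 to 62134763 in GRCm38, the assembly of mm10), the proendocrine transcription factor gene, was close to the lower limit of measurement, with 12 to 28 reads per library. It stood at 0.95, 1.44 and 1.22 CPM across the WT libraries, at 1.86, 2.11 and 2.28 across db/+ and at 2.88, 2.35 and 1.29 across db/db. Every db/+ library was above every WT library, whereas db/db 3 lay within the WT range. The log2 fold change was 0.83 ± 0.35 (SE) for db/db against WT (adjusted p = 0.0737) and 0.04 ± 0.33 for db/db against db/+ (adjusted p = 0.933). For db/+ against WT it was 0.79 ± 0.34 (adjusted p = 0.282). None of these passed the threshold of 0.05. Without db/db 3 the difference of db/db from WT passed (1.11, adjusted p = 0.0264), and without db/db 1 it was 0.58 (adjusted p = 0.253).

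Sox9 (chromosome 11, 112782210 to 112787757), a factor of pancreatic progenitors and of adult ducts, had 10 to 80 reads per library. It was at 1.43, 0.90 and 1.73 CPM across the WT libraries, at 1.05, 1.18 and 1.31 across db/+ and at 10.98, 2.35 and 2.59 across db/db. All db/db libraries were above all others, and db/db 1 was more than 4 times as high as the other db/db libraries. Sox9 rose by 1.95 ± 0.57 on the log2 scale against WT (adjusted p = 0.0189) and by 2.14 ± 0.57 against db/+ (adjusted p = 0.0127). Without db/db 1 the log2 fold change of Sox9 was 0.87 against WT, which did not pass (adjusted p = 0.0689), and 1.07 against db/+ (adjusted p = 0.0314). The call of Sox9 against WT also ended without WT 1 (adjusted p = 0.0584) or WT 2 (adjusted p = 0.0687), and that against db/+ ended without db/+ 1 (adjusted p = 0.0504). When only the db/db and WT libraries were fitted, Sox9 was not called against WT.

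Sox4 (chromosome 13, 28948919 to 28953699), which acts with Neurog3 in endocrine differentiation, was the most abundant of the 10 per kb of exons in every group. It stood at 49.43, 44.43 and 82.09 CPM across the WT libraries, at 44.63, 49.61 and 41.11 across db/+ and at 59.42, 51.16 and 56.25 across db/db. WT 3 lay far above the other WT libraries, and the db/db range fell between them. The log2 fold change was -0.07 ± 0.21 against WT (adjusted p = 0.812) and 0.30 ± 0.21 against db/+ (adjusted p = 0.298). Without WT 3 the value against WT was 0.24 (adjusted p = 0.0948), and the fit without WT 3 called the rise against db/+ (adjusted p = 0.0241). A fit of only the db/db and db/+ libraries also called this rise.

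Among the Notch ligands, Jag1 (chromosome 2, 137081451 to 137116520) showed the smallest adjusted p of the 10 genes in both db/db comparisons. It was at 13.96, 12.19 and 10.36 CPM across the WT libraries, at 15.77, 12.74 and 14.68 across db/+ and at 45.01, 22.30 and 27.48 across db/db. Each db/db library exceeded every WT and db/+ library. Jag1 rose by 1.36 ± 0.24 against WT (adjusted p = 0.00112), a fold of 2.57, and by 1.13 ± 0.23 against db/+ (adjusted p = 0.00324), a fold of 2.18. Without db/db 1 the rise was 1.03 against WT (adjusted p = 1.10e-04) and 0.80 against db/+ (adjusted p = 8.38e-04). Dll1 (chromosome 17, 15367354 to 15376932), the Delta-type ligand that acts in early endocrine commitment, was at 14.84, 9.75 and 8.33 CPM across the WT libraries, at 9.46, 12.40 and 10.69 across db/+ and at 8.51, 9.04 and 8.30 across db/db. The db/db libraries lay below all db/+ libraries but overlapped WT. The log2 fold changes of Dll1, -0.36 ± 0.20 against WT (adjusted p = 0.172) and -0.33 ± 0.20 against db/+ (adjusted p = 0.210), did not pass.

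The balance of Jag1 and Dll1 differed accordingly. Per kb of exons, Jag1 made up 40.5%, 47.5% and 47.4% of the sum of Jag1 and Dll1 across WT, 54.7%, 42.7% and 49.9% across db/+, and 79.3%, 64.1% and 70.6% across db/db. The Jag1 share in each db/db library exceeded that in each other library. This share leaves out the other ligand genes. Mean levels per kb in WT, db/+ and db/db were 13.5, 13.3 and 13.5 CPM for Jag2. They were 4.63, 4.21 and 3.74 for Dll4, and 2.09, 2.47 and 5.42 for Jag1.

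Notch1 (chromosome 2, 26457902 to 26503822), the receptor gene with the highest level per kb among the 4 Notch receptors in WT and db/+, moved the other way. It was at 84.27, 77.39 and 84.83 CPM across the WT libraries, at 61.69, 69.52 and 70.23 across db/+ and at 73.41, 59.58 and 55.28 across db/db. All db/db and all db/+ libraries lay below all WT libraries, and db/db overlapped db/+. Notch1 fell by 0.39 ± 0.10 on the log2 scale in db/db against WT (adjusted p = 0.00688), to a fold of 0.762. Against db/+ the log2 fold change was -0.10 ± 0.10 (adjusted p = 0.458), and for db/+ against WT it was -0.29 ± 0.10 (adjusted p = 0.168), so neither passed. With summed Y-linked CPM as a covariate the log2 fold change of Notch1 against WT was -0.14 (adjusted p = 0.413).

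Notch2 (chromosome 3, 98013538 to 98150367), a receptor gene also active in the developing ducts, depended on db/db 1. It stood at 16.03, 12.82 and 11.48 CPM across the WT libraries, at 14.47, 15.95 and 12.15 across db/+ and at 52.97, 16.85 and 18.75 across db/db. The other db/db libraries were above WT and db/+ by small margins only. The log2 fold change was 1.11 ± 0.45 against WT (adjusted p = 0.0921) and 1.04 ± 0.45 against db/+ (adjusted p = 0.110), and neither passed. Without db/db 1 it was 0.40 (adjusted p = 0.0684) and 0.34 (adjusted p = 0.122), while without db/db 2 Notch2 passed in both comparisons (adjusted p = 0.0360 and 0.0416). Notch2 was also called higher against WT by DESeq2 (adjusted p = 0.0401). In both comparisons edgeR called it higher without robust dispersion (adjusted p = 0.0260 and 0.0343). It did so too with the Y-linked covariate (2.03 and 2.09, adjusted p = 1.57e-05 and 2.20e-05). All these fits include db/db 1, and the Y-linked covariate rests largely on the contrast of db/db 1 with db/db 2 and db/db 3.

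The other receptor genes rose in db/db. Notch3, a receptor gene of pericytes and smooth muscle, was at 22.30, 21.49 and 21.64 CPM in WT and 62.57, 37.91 and 51.94 CPM in db/db, a rise of 1.22 ± 0.16 (adjusted p = 7.38e-05). Notch4, an endothelial receptor gene, went from 22.30, 20.32 and 23.37 CPM to 31.01, 28.00 and 28.12 CPM, a rise of 0.40 ± 0.10 (adjusted p = 0.00616). Against db/+, Notch3 rose by 1.79 ± 0.16 and Notch4 by 0.78 ± 0.10 (adjusted p = 4.21e-06 and 4.76e-05). Per kb of exons, Notch1 thus held 46.2% ± 0.824 (SD, n = 3) of the summed receptor level in WT, 47.3% ± 3.85 in db/+ and 26.2% ± 3.35 in db/db. The Notch3 share was 21.7% ± 0.712, 18.2% ± 2.26 and 36.9% ± 3.97 in the same groups, and neither share's db/db range overlapped the others. The Notch2 share was 23.1% in db/db 1 but 11.5% and 11.4% in the other db/db libraries, within the range of 8.64% to 14.6% in WT and db/+.

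**Figure D3:**
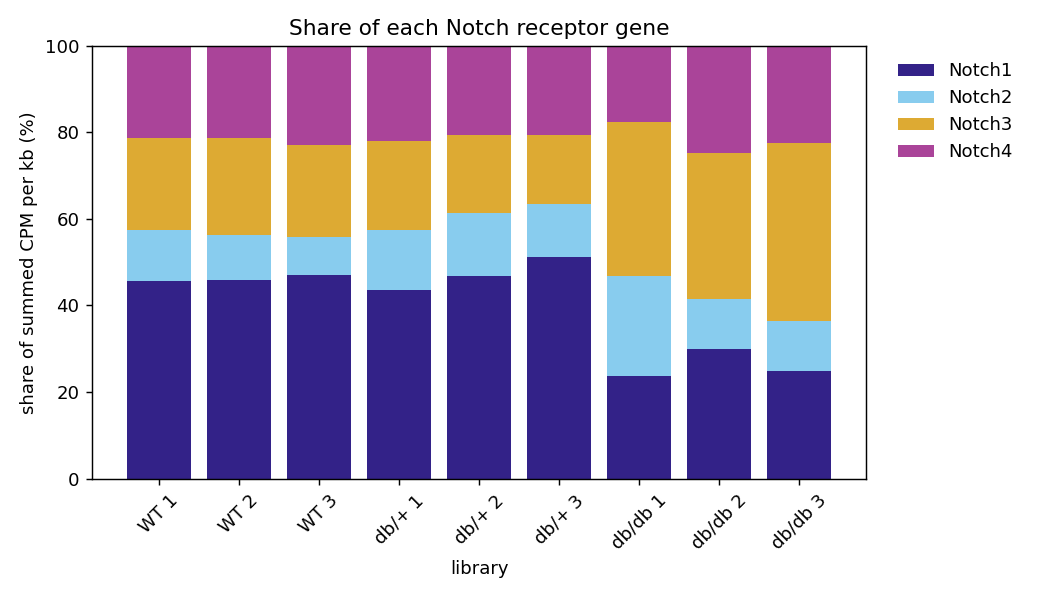
Share of each Notch receptor gene in the summed CPM per kb of exons (vertical axis, percent) in each of the 9 libraries (horizontal axis). The Notch1 segment spans 43.7% to 51.3% in the WT and db/+ libraries and 23.6% to 30.0% in db/db.

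Of the Notch target genes, Hes1, Hey1, Heyl and Nrarp rose. Hes1 (chromosome 16, 30065357 to 30067796), the repressor of Neurog3, was at 10.71, 12.01 and 10.36 CPM across the WT libraries, at 17.06, 12.23 and 13.38 across db/+ and at 31.56, 16.97 and 19.83 across db/db. Every db/db library exceeded every WT library, but db/db 2 was just below db/+ 1. Hes1 rose by 1.04 ± 0.21 against WT (adjusted p = 0.00229), a fold of 2.05, and by 0.67 ± 0.21 against db/+ (adjusted p = 0.0226). Without db/db 1 the rise of Hes1 against WT was 0.74 (adjusted p = 0.00220), and the value against db/+ was 0.38 and did not pass (adjusted p = 0.0717). The call of Hes1 against db/+ also ended without db/+ 2 or db/+ 3, where the highest adjusted p was 0.0881. When only the db/db and db/+ libraries were fitted, Hes1 was not called against db/+.

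Hey1 (chromosome 3, 8663359 to 8667038), a related repressor gene also induced by Notch in endothelium, had 21 to 59 reads per library. It was at 2.78, 3.25 and 2.13 CPM across the WT libraries, at 3.23, 2.36 and 2.94 across db/+ and at 8.10, 4.46 and 5.39 across db/db. All db/db libraries were above all others. Hey1 rose by 1.12 ± 0.27 against WT (adjusted p = 0.00488) and by 1.06 ± 0.27 against db/+ (adjusted p = 0.00665). Without db/db 1 it rose by 0.85 (adjusted p = 0.0217) and 0.80 (adjusted p = 0.0293).

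Over all tested genes, 21.8% were called higher and 19.9% lower against WT, and 20.6% higher and 19.7% lower against db/+. Of the 6 tested genes in a list of Notch targets, 4 rose in each db/db comparison and 0 fell, with a median log2 fold change of 0.90 against WT. Besides Hes1 and Hey1 these were Nrarp, a feedback inhibitor of Notch (0.77 ± 0.23 against WT, adjusted p = 0.0174), and Heyl, a target gene of Notch3 in mural cells (1.64 ± 0.52, adjusted p = 0.0289). Nrarp was at 3.89, 5.51 and 4.57 CPM in WT and 9.06, 7.31 and 7.44 CPM in db/db. Heyl was at 3.49, 1.99 and 2.64 CPM in WT and at 15.92, 4.95 and 4.96 CPM in db/db, highest in db/db 1. Heyl did not pass against WT without db/db 1 (0.86, adjusted p = 0.0622), so that 3 genes of the list rose and 1 fell. Hes6 (0.18 ± 0.12) did not pass, nor did Hey2 (-0.59 ± 0.42), which was called lower without db/db 1 (-1.30, adjusted p = 0.00789). Hes7 was not tested, and Hes5 was listed at 0 in all 9 libraries, which allows up to 0.412 CPM.

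Myc (chromosome 15, 61985341 to 61990361), a growth-promoting transcription factor gene that is induced in islets exposed to high glucose, was at 10.16, 14.99 and 9.55 CPM across the WT libraries, at 8.17, 11.47 and 8.40 across db/+ and at 16.19, 13.38 and 14.01 across db/db. The db/db libraries were above all db/+ libraries, and WT 2 lay within the db/db range. Myc rose by 0.63 ± 0.19 against db/+ (adjusted p = 0.0169), a call that ended without db/+ 1 or db/+ 3 (adjusted p up to 0.0655). Against WT the log2 fold change was 0.33 ± 0.19 and did not pass (adjusted p = 0.184), but it did without WT 2 (0.55, adjusted p = 0.0317).

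Among the db/db libraries, db/db 1 was highest for 9 of the 10 genes, and it was the highest of all 9 libraries for 7. Relative to the exons' length, the order in WT ran from Sox4 (12.2 CPM per kb) through Notch1 (5.77), Hes1 (5.41), Myc (4.26), Dll1 (2.60), Jag1 (2.09), Notch2 (1.28), Hey1 (1.23) and Neurog3 (0.783) to Sox9 (0.327). In that order the ranges of Notch1 and Hes1, Hes1 and Myc, Myc and Dll1, Dll1 and Jag1, and Notch2 and Hey1 overlapped in WT. In db/db the highest were Sox4 (11.6) and Hes1 (11.2), whose ranges overlapped, followed by Jag1 (5.42), Myc (5.35) and Notch1 (4.41). Sox9 remained the lowest (1.28 CPM per kb), with a range that overlapped that of Neurog3 (1.41).

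In db/+ against WT, 0 of the 10 genes passed edgeR's test, where 1.43% of all tested genes did, 0.606% higher and 0.82% lower. At an unadjusted p under 0.05 in edgeR's test there were 2, Neurog3 and Notch1. The share of all tested genes at that threshold is not given here, and the 1.43% is for the adjusted p, so no excess is shown. By adjusted p, limma-voom called 0. DESeq2 called 0 of the 7 genes to which it gave an adjusted p, which left out Neurog3, Sox9 and Hey1. The CPM ranges of db/+ and WT did not overlap for 3 genes, higher for Neurog3 and Hes1 and lower for Notch1, where 22.5% of all tested genes had such ranges, 12.1% higher and 10.4% lower. The log2 fold change of Hes1 was 0.37 ± 0.21 (adjusted p = 0.450), and those of the other 7 genes lay between -0.37 and 0.24.

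The start sites of Jag1, which rose, of Notch1, which fell, and of Neurog3, the gene that HES1 represses, are shown as the 250 bases upstream of the RefSeq start in GRCm38.p6. A promoter entry was found for 6 of the 10 genes, and there was none for Sox9, Hes1, Hey1 and Myc. Capitals mark matches on either strand to the RBPJ core TGGGAA, the N-box CACNAG bound by Hes proteins, or the E-box CANNTG bound by proneural factors.
Jag1: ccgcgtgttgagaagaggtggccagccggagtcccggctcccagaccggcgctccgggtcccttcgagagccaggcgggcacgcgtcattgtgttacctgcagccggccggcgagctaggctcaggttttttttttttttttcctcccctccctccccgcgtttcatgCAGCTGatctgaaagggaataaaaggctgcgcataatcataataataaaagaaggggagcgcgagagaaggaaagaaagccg
Notch1: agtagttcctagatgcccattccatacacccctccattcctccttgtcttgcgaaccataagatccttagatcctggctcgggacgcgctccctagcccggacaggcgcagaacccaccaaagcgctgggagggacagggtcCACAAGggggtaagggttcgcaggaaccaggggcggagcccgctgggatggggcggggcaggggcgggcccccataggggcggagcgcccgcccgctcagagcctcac
Neurog3: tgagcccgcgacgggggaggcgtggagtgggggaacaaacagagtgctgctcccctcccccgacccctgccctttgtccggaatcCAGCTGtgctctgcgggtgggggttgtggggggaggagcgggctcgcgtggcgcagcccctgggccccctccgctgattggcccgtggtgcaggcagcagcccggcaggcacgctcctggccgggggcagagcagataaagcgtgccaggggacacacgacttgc
These lie at chr2:137116521-137116770 (minus strand), chr2:26503823-26504072 (minus strand) and chr10:62132840-62133089 (plus strand). The Jag1 stretch held an E-box at -82 to -77 relative to the start, the Notch1 stretch an N-box at -108 to -103, and the Neurog3 stretch an E-box at -165 to -160. None of the 3 held TGGGAA, which occurred in 21.6% of 32851 promoter stretches of this length, while 36.7% held an N-box and 66.2% an E-box. Such matches describe the letters only. The Sox4 stretch (chr13:28953700-28953949, minus strand) held all 3 motifs, with TGGGAA at -100 to -95.

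The wider Notch pathway did not move as a block. The counts of each pathway and marker list are to be read beside the shares over all tested genes. These were 21.8% higher and 19.9% lower against WT, and 20.6% higher and 19.7% lower against db/+. A list count near these shares says little of the list as a set. For the fits without db/db 1 no such share is given here. Of 6 tested ligand genes, Jag1 and Dner, a non-canonical ligand gene (0.45 ± 0.13, adjusted p = 0.0145), rose against WT and 0 fell. Jag2, the ligand gene with the highest CPM per kb of the 6, was not called (0.00 ± 0.10, adjusted p = 0.981), nor was the endothelial ligand gene Dll4 (-0.31 ± 0.12, adjusted p = 0.0518). Among 14 tested genes of receptor cleavage and glycosylation, 2 rose and 1 fell against WT, with a median log2 fold change of 0.03. Ncstn, a subunit of gamma-secretase, went from 98.9 ± 2.93 to 159 ± 3.61 CPM (0.69 ± 0.07, adjusted p = 4.39e-06). Of the Fringe genes, whose enzymes add sugars to Notch receptors, Lfng rose (1.01 ± 0.38, adjusted p = 0.0446) and Mfng fell by 0.76 ± 0.23 (adjusted p = 0.0162). The value of Lfng without db/db 1 was 0.36 and did not pass (adjusted p = 0.368). Of 15 genes of Notch endocytosis and turnover, 3 rose and 1 fell. The ubiquitin ligase genes Neurl1b (1.20 ± 0.14) and Dtx4 (1.18 ± 0.21) rose, and Dtx2 fell by 0.92 ± 0.11. In the fit without db/db 1, 5 genes of this list rose and 1 fell.

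In the nuclear complex of activators and corepressors, 1 of 19 tested genes rose and 8 fell against WT, with a median log2 fold change of -0.23. Over all tested genes 21.8% rose and 19.9% fell in this comparison. Rbpj, which encodes the DNA-binding partner of Notch, was at 18.25, 17.34 and 18.29 CPM in WT and 17.29, 13.25 and 15.62 CPM in db/db and did not pass (-0.22 ± 0.12, adjusted p = 0.146). The Groucho corepressor genes, whose proteins bind Hes repressors, divided: Tle1 went from 61.7 ± 1.74 to 133 ± 9.86 CPM (1.10 ± 0.07, adjusted p = 1.10e-07), and Tle3 from 134 ± 13.9 to 52.9 ± 6.37 CPM (-1.34 ± 0.11, adjusted p = 7.73e-07). Spen, a corepressor of RBPJ, fell by 0.76 ± 0.11 (adjusted p = 2.03e-04). Spen was also lower in db/+ than in WT (-0.69 ± 0.11, adjusted p = 0.0198). Between db/db and db/+ it did not pass (-0.06 ± 0.12, adjusted p = 0.691). Against db/+, 2 genes of this list rose and 6 fell.

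Genes that act with or after Neurog3 went both ways. Of 19 tested members of that list, 4 rose and 8 fell against WT (median -0.35), and 3 rose and 5 fell against db/+ (median -0.07). Neurod1, a direct target of Neurog3, was at 196.8, 210.5 and 192.9 CPM in WT and 83.70, 109.6 and 101.3 CPM in db/db (-1.03 ± 0.09, adjusted p = 1.40e-06). Rfx6, an endocrine factor gene, rose by 0.74 ± 0.08 (adjusted p = 6.76e-06) and Amotl2 by 0.55 ± 0.09 (adjusted p = 3.76e-04). Amotl2 did not pass against db/+ (0.22 ± 0.09, adjusted p = 0.0716). Sox11, a close relative of Sox4, rose from 0.87, 1.17 and 1.52 CPM in WT to 2.74, 2.11 and 2.69 CPM (1.09 ± 0.35, adjusted p = 0.0234), a call that ended without db/db 1 (1.03, adjusted p = 0.0522). Of the list, 4 genes rose and 6 fell against WT when db/db 1 was left out, with a median of -0.17. Pax4, another Neurog3 target, was listed at 0 in all libraries. Insm1 (-0.35 ± 0.20) did not pass.

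Of 14 tested pancreatic progenitor factors, 5 rose and 6 fell against WT, and 2 rose and 5 fell against db/+. The risen genes against WT were Sox9, Hes1, Gata4, Nr5a2 and Ptf1a, of which Gata4, Nr5a2 and Ptf1a are known to be active in acinar cells. Nr5a2 was at 3.19 ± 1.12 CPM in WT and 9.12 ± 5.47 CPM in db/db (1.48 ± 0.39, adjusted p = 0.0113). Against db/+, Nr5a2 did not pass (0.77 ± 0.37, adjusted p = 0.123). Only 2 progenitor factors rose against WT without db/db 1, Hes1 and Nr5a2 (0.89, adjusted p = 0.0192), as Sox9, Gata4 (adjusted p = 0.0623) and Ptf1a (adjusted p = 0.0638) no longer passed, and the 6 fallen genes were the same. The fallen genes included Pdx1, from 177 ± 7.08 to 87.0 ± 6.14 CPM, and Foxa2, from 86.6 ± 6.19 to 48.2 ± 2.76 CPM, both of which adult beta cells also need. Summed acinar markers ran from 7151 to 13493 CPM (WT), 16516 to 37684 (db/+) and 20105 to 56182 (db/db), and their part in the rise of these factors was not tested.

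Around Myc, 1 of 12 tested network genes rose and 3 fell against WT. Mxd1, which encodes a repressor that competes with MYC for MAX, went from 62.1 ± 0.505 to 29.4 ± 3.43 CPM (-1.08 ± 0.11, adjusted p = 4.19e-06), and Mlxipl, which encodes the glucose-responsive factor ChREBP, fell by 1.16 ± 0.14. Mxd4 rose by 0.40 ± 0.08. Of 29 tested genes in a list of MYC targets, 3 rose and 13 fell against WT (median -0.18), and 1 rose and 12 fell against db/+ (median -0.10). The transferrin receptor gene Tfrc fell by 1.69 ± 0.08 and the cyclin gene Ccnd2 fell by 1.56 ± 0.12, while the nucleolar gene Npm1 rose by 0.42 ± 0.09. Among the targets, 2 rose and 10 fell against WT without db/db 1.

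**Figure D4:**
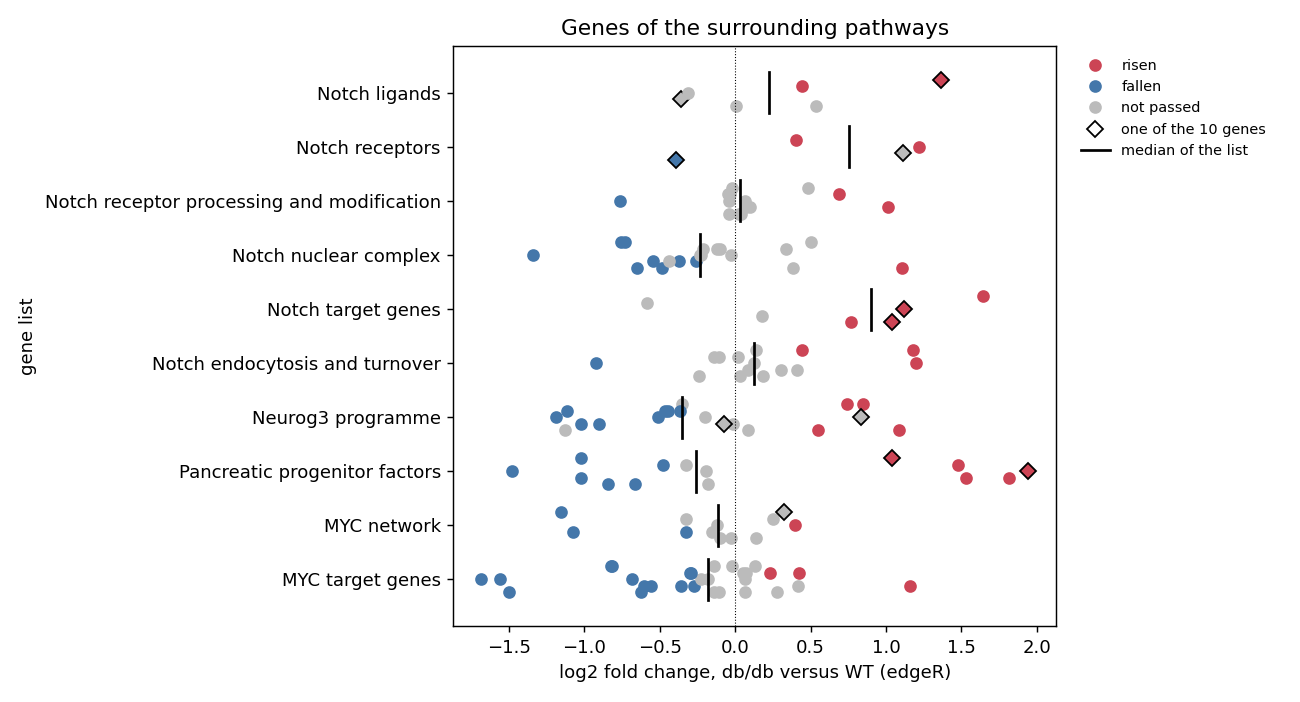
Log2 fold change of db/db against WT (horizontal axis) for each tested gene of the 10 surrounding gene lists (vertical axis), coloured by the test, with diamonds for the 10 genes and a line at each list's median. The medians run from -0.35 in the Neurog3 list to 0.90 in the Notch target list.

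The summed markers of several other cell types were also higher in db/db. Of 18 tested duct markers, 11 rose and 0 fell against WT, and their summed CPM ran from 798 to 878 (WT), 936 to 1105 (db/+) and 1520 to 2205 (db/db). The list includes Krt7, Krt8, Krt18 and Epcam, which islet endocrine cells also express. The duct keratin gene Krt19 was at 3.02, 2.26 and 3.76 CPM in WT and 24.15, 5.45 and 7.54 CPM in db/db. Of 16 pericyte, stellate and fibroblast markers, 10 rose and 0 fell, and their sums were 266 to 395 CPM (WT), 262 to 403 (db/+) and 835 to 2194 (db/db). Of 16 endothelial markers, 9 rose and 0 fell, with sums of 641 to 699, 622 to 688 and 752 to 1047 CPM in WT, db/+ and db/db. Macrophage markers summed to 109 to 152 CPM in WT and 178 to 298 CPM in db/db, with 4 of 14 risen and 0 fallen. Schwann cell markers did not follow this pattern, with 0 of 6 risen and 1 fallen and with sums of 109 to 122 CPM in db/db and at most 118 CPM elsewhere. Of 16 islet endocrine markers, 2 rose and 8 fell against WT, although their sums overlapped between the groups. Chgb (2.17 ± 0.11) and Iapp (1.25 ± 0.12) rose, and the fallen included Ucn3 (-1.75 ± 0.10) and Isl1 (-0.62 ± 0.09). The defining markers Krt19, Krt7, Krt8, Pecam1, Cdh5, Kdr, Pdgfrb, Pdgfra and Rgs5 each had counts in every library. With db/db 1 left out, the counts risen and fallen against WT were 11 and 0 for duct, 9 and 0 for pericyte, 8 and 1 for endothelial and 3 and 0 for macrophage markers. In db/db 1 the acinar, duct, endothelial, pericyte and macrophage sums were the highest of all 9 libraries.

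**Figure D5:**
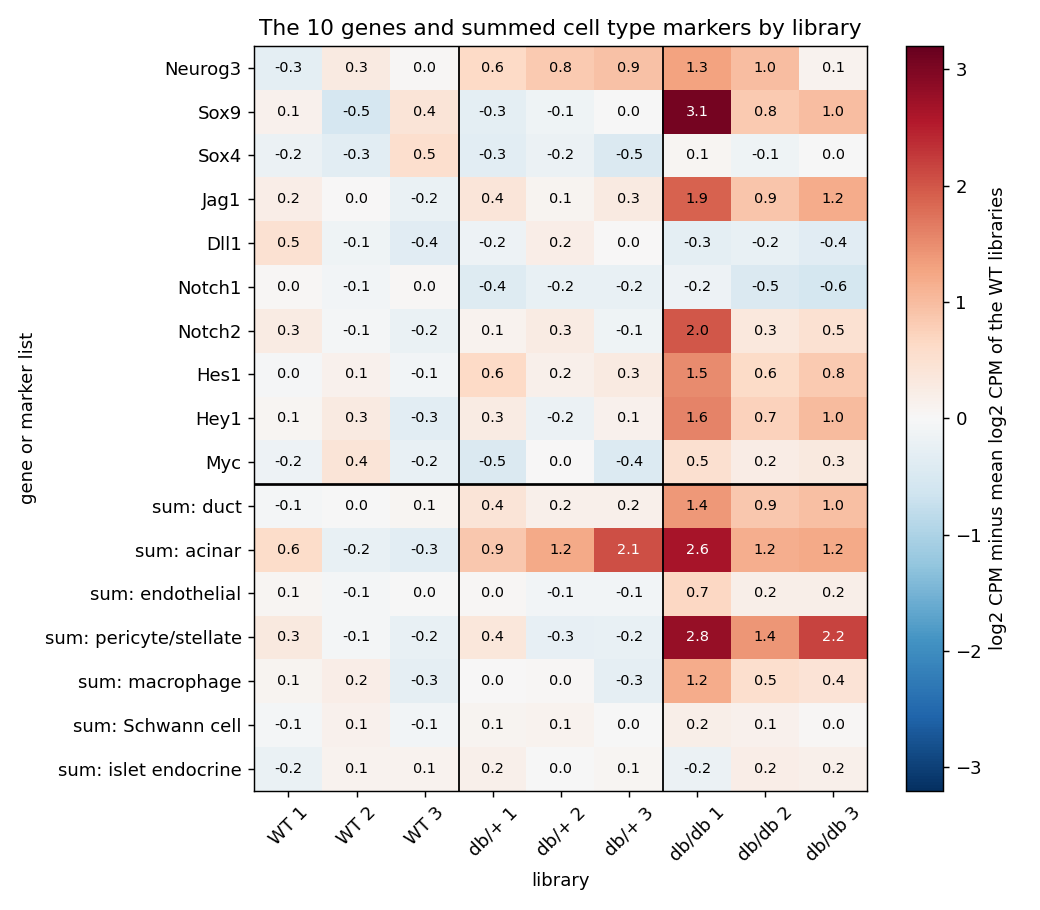
Log2 CPM of the 10 genes (above the line) and of the summed markers of 7 cell type lists (below the line) in each library, minus the mean log2 CPM of the WT libraries. In db/db 1, Sox9 stands at 3.1, Notch2 at 2.0 and Jag1 at 1.9, beside 2.8 for the pericyte and 2.6 for the acinar sum.

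Set against these sums, the genes that were higher in db/db differed. Per 1000 CPM of duct markers, Hes1 was at 13.4, 14.4 and 11.8 CPM in WT and 14.3, 11.2 and 12.3 CPM in db/db, and the ranges of Hes1, Hey1, Jag1 and Notch2 overlapped between db/db and both other groups. Sox9 per 1000 CPM of duct markers was 4.98 in db/db 1, and 1.55 and 1.60 in db/db 2 and db/db 3, within the WT range of 1.08 to 1.97 but above the db/+ range of 0.952 to 1.40. Per 1000 CPM of endothelial markers, Sox9 was at 3.10 to 10.5 in db/db and at 1.41 to 2.63 in the other libraries. On the same scale, Jag1 was at 20.0, 19.0 and 15.8 CPM across WT, 22.9, 20.4 and 23.6 across db/+, and 43.0, 29.4 and 36.5 across db/db. Hey1 on that scale was 3.25 to 5.07 in WT and 5.87 to 7.73 in db/db, so both were higher in all db/db libraries than in all others. Per 1000 CPM of pericyte, stellate and fibroblast markers, Hes1, Hey1, Jag1 and Notch2 were all lower in every db/db library than in every other. Sox9 overlapped both other groups on this scale. The genes of that sum moved unequally, with log2 fold changes against WT of 1.31 for Rgs5, 0.91 for Pdgfrb and 4.99 for the collagen gene Col1a1. It is thus no count of pericytes. The genes of the duct sum moved unequally too, by 0.90 for Krt7 and 2.03 for Krt19 against WT. That sum is no count of duct cells either. The ratios to marker sums were chosen after the values were seen, and the part of cell makeup in the rise of each gene was not tested.

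With the mean log2 CPM of duct markers as a covariate, 2 of the 10 genes were called in db/db against WT, Notch1 (-0.845) and Notch2 (-1.22), and 0 against db/+. The values of Jag1, Hes1, Hey1 and Sox9 against WT were then 0.10, -0.10, 0.14 and -1.37. With the mean of acinar markers as a covariate 1 gene, Notch1 (-0.73, adjusted p = 0.00318), was called against WT, and 4 were against db/+. The duct mean was 5.02 to 5.65 in db/db and 4.25 to 4.62 in the other libraries, so what it shares with genotype cannot be told apart. The same holds against WT for the acinar mean, 6.29 to 7.08 in WT and 7.85 to 9.20 in db/db. In db/+ the acinar mean was 7.35 to 8.40, which overlaps db/db. The share of all genes called under each covariate is not given here, so the covariate counts stand without a background. With the log2 of the Y-linked sum as a covariate, 6 of the 10 genes were called in each db/db comparison, all higher. Against WT these were Neurog3 (1.39, adjusted p = 0.0373), Sox9 (3.11), Hes1 (1.55), Hey1 (1.60), Notch2 and Jag1 (1.90), while Notch1 was not called. Against db/+ they were Sox9 (3.47), Hes1 (1.24), Hey1 (1.59), Notch2, Jag1 (1.73) and Myc (0.85). The Y-linked sum was 176 CPM in db/db 1, 1.11 and 0.108 in db/db 2 and db/db 3, and 219 to 417 in the others. On the log2 scale this fit thus rests largely on the contrast of db/db 1 with db/db 2 and db/db 3. It cannot tell sex apart from whatever else set db/db 1 apart.

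The profiles most like those of the 10 genes were found by the root mean square difference of log2 CPM, centred on each gene's mean over the 9 libraries, among genes with a mean of at least 10 CPM. Hes1 was closest to Thbd (0.0791) and Wwtr1 (0.112), Jag1 to Litaf (0.100) and Ephb4 (0.110), and Hey1 to Cd34 (0.116) and Dbi (0.123). Notch1 was closest to Ptch1 (0.0517) and Nfatc3 (0.0545), Notch2 to Mgat4a (0.162) and Lamb2 (0.163), and Dll1 to Arl6ip6 (0.102) and Mov10 (0.104). For Sox4 they were Spred2 (0.0920) and Arhgap21 (0.122), and for Myc the second nearest was Syp (0.139). Neurog3 and Sox9 were farther from their nearest profiles, 0.185 to Pim3 and 0.225 to Vasn for Neurog3, and 0.278 to St3gal4 and 0.284 to Nfib for Sox9. Both had low counts, whose part in this was not tested. The distances were not scaled to each gene's own spread over the libraries, which was largest for Sox9 (0.871 on the log2 scale). Thbd, the nearest profile to Hes1, had means of 21.5 CPM in WT, 25.5 in db/+ and 41.7 in db/db.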

How the data were processed

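RNA sequencing was analysed for 9 islet libraries in 3 groups. Per the labels' protocols, Trizol RNA went into Ribo-Zero Gold libraries. Per the submitters' processing notes, bcl2fastq 2.20.0.422 made the reads, which TopHat2 2.0.14 placed on mm10. The deposited values are raw read counts per gene symbol, without normalisation by the authors. Which program, annotation and strand setting gave the counts is not given in the sources used, so genes that overlap, antisense ones included, can share reads. The table has 1 column of no sample in the series, which was not used.

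Genes were kept by filterByExpr, leaving 16826, and scaled by TMM. One model with a term per group was fitted to all 9 libraries in edgeR 4.0.16 (R 4.3.3, robust dispersion, common BCV 0.129, residual df 6). The 3 pairs of groups were tested by quasi-likelihood F-tests (two-sided), with p adjusted by Benjamini-Hochberg across the 16826 genes and called under 0.05. Each SE is the log2 fold change over the root of F. The script was tested on simulated data first. Library numbers only name the libraries. Levels per kb use merged exon lengths from GENCODE for an older assembly. Positions and promoters are RefSeq's for GRCm38.p6. Alternatives were other scalings and filters, DESeq2 1.42.0, limma-voom (limma 3.58.1), 2-group fits, 4 covariates and each library left out; refitting the listed genes without db/db 1 was added after seeing the data. Named genes are the 10 members, the 2 risen and 2 fallen genes with the smallest adjusted p in each list for db/db against WT, and the 2 nearest profiles of each member. Some items that this rule or the labels name are not reported here. Other named members of a list were chosen after their values were seen. The members and lists were chosen with earlier results of these data known. Figures were drawn with matplotlib 3.10.9.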

Additional observations from a re-analysis of the deposited data

How the results depend on the processing

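Over the libraries left out in turn, the number of the 10 genes called was 4 to 6 in db/db against WT, 3 to 6 in db/db against db/+ and 0 to 0 in db/+ against WT. Jag1 and Hey1 were called in every one of these fits of both db/db comparisons. The count against db/+ was 3 without db/+ 1 or db/+ 3. In the fit of all 9 libraries, 41.7% of all tested genes were called against WT and 40.3% against db/+. For the alternatives in this section no such share is given here, so their counts stand without a background. With the acinar mean as a covariate the count against WT was 1, and with the duct mean it was 2 against WT, 0 against db/+ and 1 for db/+ against WT. With the first letter of the sample titles in the model the count against db/+ was 0, with log2 fold changes of 1.46 for Jag1, 1.55 for Hey1 and 1.03 for Myc that were larger than without it (adjusted p = 0.0731, 0.0710 and 0.0679), 1.58 for Sox9 and 0.80 for Hes1. Against WT this fit called Sox4 lower (-0.56, adjusted p = 0.00641) and did not call Sox9 (1.59, adjusted p = 0.218). All db/db titles have the letter H and all db/+ titles G, so this fit rests on the WT libraries alone for the letter. Without the low-count filter 1 gene, Notch1, was called in db/+ against WT. In the 2-group fits, Sox9 lost its call against WT and Hes1 lost its call against db/+, while Sox4 was called higher against db/+. Library totals alone moved the median of all genes by -0.22 in both db/db comparisons; Dll1 was then called lower in both and Notch1 lower also against db/+, while Hes1 and Myc lost their calls against db/+.

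Of 657 values of the 10 genes under an alternative, 572 kept their direction and side of the threshold, 29 lost their call, 18 gained one and 38 changed sign. Those with a changed sign, as log2 fold changes, were as follows. For db/db against WT, the duct covariate gave Sox9 -1.37, Hes1 -0.10 and Notch2 -1.22, the acinar covariate Sox9 -0.26, Notch2 -0.25 and Sox4 0.075, and the title letter Dll1 0.048. For db/db against db/+, the duct covariate gave Neurog3 -0.50, Sox9 -0.56, Hes1 -0.22 and Notch2 -0.83, the acinar covariate Neurog3 -0.10, library totals Neurog3 -0.20, limma-voom Neurog3 -0.034, the title letter Sox4 -0.50 and Dll1 0.23, and the Y-linked covariate Notch1 0.18. For db/+ against WT, the acinar covariate gave Hey1 -0.32, Notch2 -0.75 and Jag1 -0.27, the duct covariate Hey1 -0.15, Notch2 -0.39 and Jag1 -0.030, the title letter Sox9 0.0056, Hey1 -0.080 and Notch2 -0.027, and the Y-linked covariate Notch2 -0.054. With 1 library left out, the values ran from -0.24 to 0.24 for Sox4 in db/db against WT and from -0.20 to 0.33 for Neurog3 in db/db against db/+. In db/+ against WT they ran from -0.19 to 0.26 for Dll1, from -0.41 to 0.0060 for Sox9, from -0.079 to 0.20 for Hey1 and from -0.027 to 0.22 for Notch2. Among these, Sox9 and Hes1 in the db/db comparisons were called in the fit without covariates; the cause was not tested.

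No paired analysis was possible because the labels give no replicate numbers. Neurog3 and Sox9 rest on few reads, which limits their precision.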
